A study of Mus musculus with 6 samples.

Results

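The genes described here are 35 genes of the p53 and DNA damage response. They were measured in mouse adaptive regulatory T cells (aTreg), WT or deficient in the bone morphogenetic protein receptor BMPR1a. They were chosen by name, as p53 itself, its regulators, its target genes and the kinases that signal DNA damage, and without the cyclin-dependent kinase inhibitors and the BCL2 family. All 35 were found among the 25759 genes of the table, and 34 passed the filter on low values, a mean of at least 1 FPKM over the 6 libraries. FPKM count fragments relative to transcript length and to the library's mapped fragments, so levels can be compared between genes.

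aTreg are CD4 T cells that carry the transcription factor Foxp3 after activation in the presence of TGF-beta. Lymph node and spleen cells of C57BL/6 mice, 8 to 12 weeks old, were cultured for 3 days with concanavalin A at 2 µg/ml, which drives T cells to divide, IL-2 at 10 ng/ml and TGF-beta at 3 ng/ml, and cells positive for CD4 and for a Foxp3-GFP reporter transgene were sorted. The 3 WT libraries came from normal B6 mice with the reporter, and the 3 BMPR1a-deficient libraries from BMPR/CD4cre mice with the same reporter. CD4cre acts from the stage at which developing T cells first express Cd4, so it acts before the culture, in T cells that passed through that stage. How complete the loss of the receptor was is seen here only through the Bmpr1a RNA given below. No Cre is named for the WT mice. The labels do not give the animal or culture behind each library, so a p-value reflects the spread among these libraries alone, part or all of which may be technical. Whether a bulk value reflects fewer cells that express a gene or less RNA per cell cannot be told apart.

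p53, encoded by Trp53, is a transcription factor that is held low by the ubiquitin ligase MDM2 and its partner MDM4. The kinases ATM and ATR, acting in part through CHEK2 and CHEK1, free it after DNA damage, and it then raises genes for growth arrest, DNA repair, redox control and cell death, as well as Mdm2 itself. Several of these genes also answer to other signals: Ddit4 and Sesn2 to hypoxia and amino acid shortage, Sesn1 and Sesn3 to FOXO factors, and Btg1, Btg2 and the Gadd45 genes to activation or quiescence of lymphocytes.

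p53 binds a 20-base DNA site made of 2 copies of a 10-base half-site, and the promoters of the genes were searched for it because the genes are grouped by this regulator. RefSeq promoters in GRCm38.p6, from 250 bases before to 50 after the start, were found for 28 of the 35 genes, 32 promoters in all. The half-site is a pattern that allows more than 1 base at most positions, and a match on one strand is also a match on the other. A half-site without a mismatch was in 10 of these 32 promoters (31.25%), which belong to 9 genes, and in 8.36% of all 32851 promoters of that length. No promoter of the 35 genes held 2 exact half-sites with a spacer of up to 10 bases, which 0.043% of all promoters did. With no spacer and up to 2 bases off the consensus, outside the invariant C and G of each half-site, 1 of the 32 promoters held a site, that of Ccng1, against 0.330% of all promoters. The sites of Ccng1, of Trp53 and 2 of its inhibitors, Mdm2 and the phosphatase gene Ppm1d, and of Gadd45a are given 5′ to 3′ on the strand of the gene, with the 20-base site of Ccng1 or the exact half-site of the others in capitals. A match is a description of the sequence and does not show that p53 binds there.
Ccng1, minus strand of chr11:40755457-40755486, 195 bases before the start: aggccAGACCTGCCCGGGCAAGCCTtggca
Mdm2, minus strand of chr10:117710925-117710954, 186 bases before the start: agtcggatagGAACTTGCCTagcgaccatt
Trp53, plus strand of chr11:69580274-69580303, 75 bases before the start: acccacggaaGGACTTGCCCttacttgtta
Ppm1d, plus strand of chr11:85311112-85311141, 132 bases before the start: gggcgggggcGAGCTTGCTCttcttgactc
Gadd45a, minus strand of chr6:67037428-67037457, 40 bases before the start: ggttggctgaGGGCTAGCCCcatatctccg
None of these 5 genes differed between the groups past the threshold.

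Some facts of the libraries bear on every value. Bmpr1a was at 1.31 to 2.34 FPKM in WT and at 0.439 to 0.720 in the deficient libraries. Its deficient mean was 0.367 times the WT mean (log2 fold change -0.71, limma adjusted p = 0.184), so it did not pass the threshold. BMPR1a-deficient replicate 1 stood apart in its 13 mitochondrially encoded mRNAs, which summed to 5335 FPKM. The sums were 44660 and 44710 in replicates 2 and 3 and 50440 to 53790 in WT. Log2 fold changes printed for single genes that replicate 1 moves by over 1.5 times are given with and without it. Adjusted p-values and counts use all 6 libraries unless stated otherwise. The 12 markers of T cells and regulatory T cells, Foxp3 and Cd4 among them, were all above 1 FPKM and summed to 4015 to 4102 FPKM in WT and 3881 to 4065 in the deficient group. Within this sum Ikzf2 was at 25.5 ± 6.40 in WT and 47.5 ± 4.49 in the deficient group and Ctla4 at 254 ± 19.4 and 170 ± 57.9 (SD, n = 3, limma adjusted p = 0.104 and 0.361), and the log2 fold change of Ctla4 was -0.64, and -0.32 without deficient replicate 1. Markers of other cells were lower: the 15 myeloid and dendritic markers summed to 27.4 to 146 FPKM in WT and 21.5 to 231 in the deficient group, with 7 of 15 under 1 FPKM in every library. Of the 8 tested, 3 had positive and 5 negative fold changes. S100a9 was at 10.2, 0.469 and 0.933 FPKM in WT and at 2.54, 23.2 and 60.6 in the deficient group (limma adjusted p = 0.406). S100a8 was at 14.0, 0.603 and 3.12 FPKM in WT and at 3.99, 24.8 and 67.1 in the deficient group (limma adjusted p = 0.437). The 11 B cell markers summed to 485 to 510 and 343 to 504 FPKM, with 1 of 11 under 1 FPKM in every library. Of the 9 tested, 7 had positive and 2 negative fold changes (55.5% of all genes tested were positive), so the sum does not speak for each marker. Blk was at 1.22, 1.99 and 3.00 FPKM in WT and at 3.09, 3.50 and 3.65 in the deficient group (limma adjusted p = 0.325). The 9 CD8 T cell and NK cell markers summed to 107 to 163 and 54.1 to 113 FPKM, with 3 of 9 under 1 FPKM in every library, but Cd8a was at 8.80 to 11.7 in WT and 13.8 to 29.1 in the deficient group (limma adjusted p = 0.236). Klrd1 was at 63.3 to 114 in WT and 12.3 to 36.9 in the deficient group (limma adjusted p = 0.115). Of the 11 stromal and erythroid markers all but 1 were under 1 FPKM in every library. The exception was Pecam1, at 49.7 ± 7.15 FPKM in WT and 46.8 ± 6.51 in the deficient group (SD, n = 3, limma adjusted p = 0.809). No marker was at 0 in all libraries. The part of other cell types in the results was not tested.

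The comparison asks whether these genes differ between WT and BMPR1a-deficient aTreg. Of the 34 genes tested, 0 were higher and 0 were lower past the threshold (limma, Benjamini-Hochberg adjusted p under 0.05 over all 13413 genes tested), where 0.746% of all genes tested were higher and 0.321% lower. The smallest adjusted p of the 34 was 0.117, for Xpc. At an unadjusted p under 0.05, 7 were higher (20.6% of the 34, against 9.29% of all genes tested) and 1 was lower (2.94%, against 5.87%). In 10 genes each deficient library was above each WT library (29.4%, against 15.9% of all genes tested), and in 2 each was below (5.88%, against 10.4%). Fold changes compare the deficient group with WT on the log2(FPKM + 1) scale, on which a change in a gene of low level looks smaller than it is. Of the 34, 28 had a positive fold change (82.4%, against 55.5% of all genes tested), with a median of 0.23 against 0.04 over all genes tested. The genes were listed with earlier results of these data known, so these shares are a description.

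**Figure D1:**
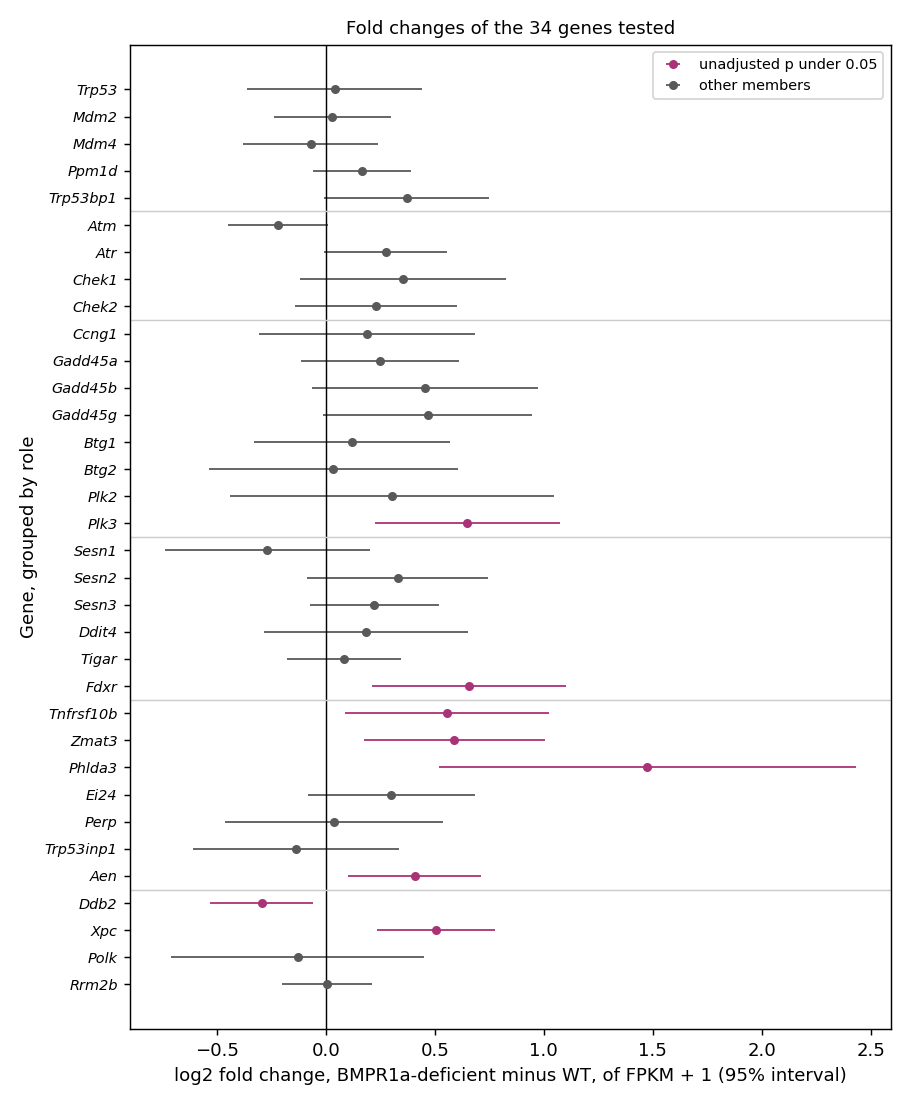
Log2 fold change of FPKM + 1, BMPR1a-deficient minus WT, of the 34 genes tested, with 95% intervals from limma (3 libraries per group); genes are grouped by role, and the 8 with an unadjusted p under 0.05 are in colour. Points lie to the right of 0 for 28 genes, Phlda3 lies farthest out with the widest interval, and no gene passed after adjustment over all genes.

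Without BMPR1a-deficient replicate 1, 31 of the 34 genes had a positive fold change, against 63.1% of all genes tested, and the median was 0.27 against 0.07. The counts at an unadjusted p under 0.05 and of groups apart without this library were added after the data were seen. The genes at an unadjusted p under 0.05 were then 10 higher, against 13.0% of all genes tested, and 1 lower, against 6.72%. The groups were apart in 19 genes with the deficient libraries above, against 28.1% of all genes tested, and in 2 with them below, against 13.8%. Again 0 passed the threshold in limma. Other libraries left out moved the values the other way. Without deficient replicate 3, 23 of the 34 had a positive fold change, with a median of 0.16 against 0.02 over all genes tested. Without WT replicate 3 there were 25, with a median of 0.17 against 0.03. With sample weights estimated from the data, 4 passed as higher, Plk3, Gadd45b, Xpc and Fdxr, where 6.21% of all genes tested did, and 0 passed in each of the other alternatives.

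The levels of the genes spread widely. In WT, 10 of the 34 lay above percentile 75 of all genes tested and 18 below the median. Btg1, an antiproliferative gene of resting lymphocytes, was the highest, with 179, 134 and 159 FPKM in the WT libraries, followed by Trp53inp1 with 129, 124 and 124. Sesn3, Ddit4, Trp53, Ccng1, Sesn1 and Btg2 followed, with WT means of 90.3 ± 10.01, 75.7 ± 19.1, 69.1 ± 0.460, 68.5 ± 11.5, 57.1 ± 3.98 and 55.1 ± 14.1 FPKM (SD, n = 3). The WT ranges of neighbours in this order overlap, apart from those of Btg1 and Trp53inp1, of Trp53inp1 and Sesn3, and of Ccng1 and Sesn1, which miss each other narrowly. At the low end were Perp, Tnfrsf10b and Plk2, with WT means of 1.03, 2.23 and 2.90 FPKM. Eda2r, an ectodysplasin receptor gene on the X chromosome and a p53 target in other tissues, was below the filter, at 0.0242 and 0.0301 FPKM in WT replicates 1 and 2, listed at 0 in WT replicate 3, and at 0.0404, 0.0125 and 0.0410 in the deficient libraries. It is the 1 gene of the 35 that was not tested.

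**Figure D2:**
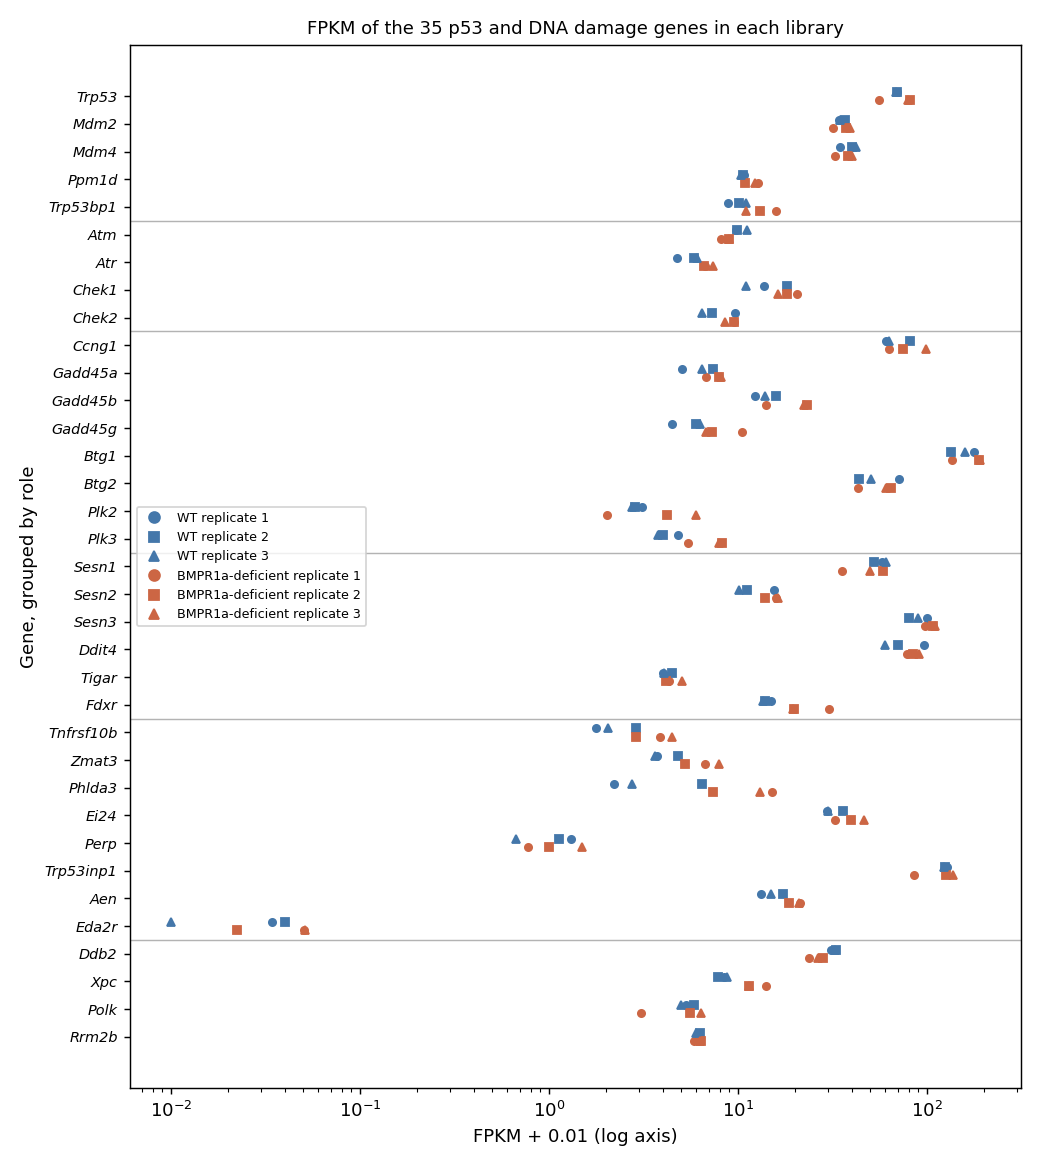
FPKM of the 35 genes in each of the 6 libraries, on a log axis with 0.01 added so that a value of 0 can be drawn; blue marks are WT, orange marks BMPR1a-deficient, the shape gives the replicate and the lines separate the roles. Levels run from Eda2r near 0 to Btg1 at 134 to 191 FPKM, and most genes overlap between the groups.

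Trp53 itself (chromosome 11, 69580359 to 69591873 in GRCm38) was at 69.1, 69.5 and 68.6 FPKM in WT and at 55.6, 81.3 and 79.4 in the deficient libraries. The WT libraries lay close together, and the deficient ones lay on both sides of them, with replicate 1 the lowest of all 6. Its log2 fold change was 0.04 (95% interval -0.36 to 0.44, limma adjusted p = 0.913), and 0.22 without that replicate (adjusted p = 0.140). Mdm2, which encodes the ligase that degrades p53 and is itself a p53 target, was at 34.2, 37.0 and 34.6 FPKM in WT and at 31.8, 37.3 and 39.2 in the deficient group. Mdm4, the related inhibitor of p53, was at 34.5, 40.4 and 42.2 FPKM in WT and at 32.8, 38.2 and 40.4 in the deficient group. Both overlapped between the groups, and their 95% intervals, -0.24 to 0.30 for Mdm2 and -0.38 to 0.24 for Mdm4, hold no doubling or halving. Their log2 fold changes of 0.03 and -0.07 were 0.12 and 0.01 without deficient replicate 1.

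Ppm1d, which encodes the phosphatase WIP1 that switches the damage response off, was at 10.8, 10.7 and 10.4 FPKM in WT and at 12.8, 10.9 and 12.3 in the deficient group. Each deficient library was above each WT library, by a small margin in replicate 2, and the log2 fold change was 0.16 (SE 0.092, limma adjusted p = 0.447). Trp53bp1 encodes 53BP1, a protein that gathers at double-strand breaks. It was at 8.84, 10.2 and 11.1 FPKM in WT and at 15.9, 13.1 and 11.0 in the deficient group, which overlapped in WT replicate 3 and deficient replicate 3 (log2 fold change 0.37, adjusted p = 0.339, and 0.24 without deficient replicate 1). Of its exon bases 15% also lie in exons of Tubgcp4 on the other strand, and the strand handling of the counting is not given in the sources used here.

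The 4 damage kinases are 2 upstream kinases and the 2 checkpoint kinases below them. Atm, whose kinase answers double-strand breaks, was at 9.77, 9.93 and 11.2 FPKM in WT and at 8.12, 8.97 and 8.93 in the deficient group. Atr, whose kinase answers stalled replication, was at 4.75, 5.89 and 6.05 FPKM in WT and at 6.70, 6.64 and 7.37 in the deficient group. The groups did not overlap in either gene, and the deficient libraries were the lower ones for Atm and the higher ones for Atr. The log2 fold changes were -0.22 (SE 0.094) and 0.27 (SE 0.115), with limma adjusted p = 0.346 and 0.339. Chek1, which encodes the kinase below ATR and is made by cycling cells, was at 13.8, 18.3 and 11.03 FPKM in WT and at 20.6, 18.1 and 16.2 in the deficient group, and Chek2 at 9.70, 7.29 and 6.44 and at 9.50, 9.59 and 8.58. Both overlapped through 1 WT library, replicate 2 for Chek1 and replicate 1 for Chek2 (log2 fold changes 0.35 and 0.23, limma adjusted p = 0.436 and 0.507).

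All 8 growth arrest genes had positive fold changes (55.5% of all genes tested), with a median of 0.28, and 0 passed the threshold in limma. At an unadjusted p under 0.05, where 9.29% of all genes tested were higher, 1 was higher. That one was Plk3, a polo-like kinase gene of the stress response (chromosome 4, 117128655 to 117133963), which was at 4.82, 3.999 and 3.78 FPKM in WT and at 5.46, 8.28 and 7.96 in the deficient group. Each deficient library was above each WT library, with replicate 1 nearest to WT. The deficient mean was 1.72 times the WT mean (log2 fold change 0.65, SE 0.173, limma adjusted p = 0.174), and the fold change was 0.82 without deficient replicate 1 (adjusted p = 0.0558). Its relative Plk2 was at 3.10, 2.83 and 2.76 FPKM in WT and at 2.03, 4.23 and 6.00 in the deficient group, so the deficient libraries lay on both sides of the WT ones (log2 fold change 0.30, limma adjusted p = 0.637, and 0.64 and 0.132 without deficient replicate 1).

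The Gadd45 genes encode small proteins that couple stress to p38 kinase and to cell cycle arrest. Gadd45a, which shares 19.1% of its exon bases with E230016M11Rik on the other strand, was at 5.06, 7.42 and 6.44 FPKM in WT and at 6.82, 7.90 and 8.13 in the deficient group. Gadd45b was at 12.3, 15.9 and 13.9 FPKM in WT and at 14.1, 23.3 and 22.4 in the deficient group. Gadd45g was at 4.46, 6.02 and 6.33 FPKM in WT and at 10.5, 7.29 and 6.75 in the deficient group. Only Gadd45g had groups that did not overlap, and its highest value was in deficient replicate 1, the library in which Gadd45b was lowest of the 3. The log2 fold changes were 0.25, 0.46 and 0.47, with limma adjusted p = 0.469, 0.377 and 0.339. Without deficient replicate 1 those of Gadd45b and Gadd45g were 0.68 and 0.29 (limma adjusted p = 0.0836 and 0.377). Ccng1, a cyclin G gene that p53 raises in many cell types and the gene with the 20-base site shown above, was at 60.9, 81.7 and 63.0 FPKM in WT and at 63.2, 74.5 and 98.5 in the deficient group (log2 fold change 0.19, adjusted p = 0.666, and 0.33 without deficient replicate 1). The antiproliferative Btg1 and Btg2 overlapped between the groups, at 137 to 191 FPKM against 134 to 179 for Btg1 and at 43.1 to 64.3 against 43.8 to 70.9 for Btg2. Their log2 fold changes were 0.12 and 0.03, and 0.28 and 0.21 without deficient replicate 1.

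Of the 6 genes of the sestrin, metabolism and redox group 5 had positive fold changes (55.5% of all genes tested). In limma 0 passed the threshold, and 1 was higher at an unadjusted p under 0.05 (9.29% of all genes tested). Fdxr, which encodes the mitochondrial ferredoxin reductase and is a p53 target (chromosome 11, 115268024 to 115277050), was at 14.96, 13.8 and 13.6 FPKM in WT and at 30.4, 19.9 and 19.6 in the deficient group. The WT libraries lay close together and below all deficient ones, and replicate 1 was far above the other deficient libraries. The deficient mean was 1.65 times the WT mean (log2 fold change 0.66, SE 0.182, limma adjusted p = 0.188), and without that replicate the fold change was 0.46 (adjusted p = 0.0682).

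Sestrins restrain mTORC1, the kinase complex that drives growth. Sesn1 was at 57.7, 52.8 and 60.7 FPKM in WT and at 35.7, 58.8 and 49.8 in the deficient group. Sesn2 was at 15.5, 11.1 and 10.1 FPKM in WT and at 15.9, 13.9 and 16.4 in the deficient group. Sesn3 was at 100.7, 80.8 and 89.4 FPKM in WT and at 97.6, 107 and 111 in the deficient group. The groups overlapped in each of them, and the log2 fold changes of -0.27, 0.33 and 0.22 had limma adjusted p = 0.536, 0.416 and 0.437. Without deficient replicate 1, the lowest library for Sesn1, they were -0.07, 0.30 and 0.27, and without deficient replicate 2 that of Sesn1 was -0.43. Ddit4, another inhibitor of mTORC1, was at 97.02, 70.3 and 59.9 FPKM in WT and at 78.3, 84.9 and 90.5 in the deficient group. Tigar, which encodes a phosphatase that diverts sugar from glycolysis, was at 4.03 to 4.50 and 4.18 to 5.03 FPKM.

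The death-promoting targets held 4 of the 8 genes at an unadjusted p under 0.05, all higher, where 9.29% of all genes tested were. Of the 7 tested, 6 had positive fold changes (55.5% of all genes tested), with a median of 0.41, 4 had deficient libraries all above WT (15.9% of all genes tested), and 0 passed the threshold in limma. Phlda3, which encodes an inhibitor of the survival kinase AKT (chromosome 1, 135766119 to 135769136), was at 2.196, 6.42 and 2.76 FPKM in WT and at 15.2, 7.39 and 13.1 in the deficient group. All deficient libraries were above all WT libraries, but WT replicate 2 and deficient replicate 2 came near each other. The deficient mean was 3.14 times the WT mean, the largest ratio among the 34 genes, with a log2 fold change of 1.48 (95% interval 0.52 to 2.43, limma adjusted p = 0.173). Without deficient replicate 1 it was 1.28 (limma adjusted p = 0.229). For each gene whose groups did not overlap, Phlda3 among them, a two-sided exact permutation test of FPKM returned 0.1, below which 3 against 3 libraries cannot go.

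Zmat3, which encodes an RNA-binding protein that p53 raises (chromosome 3, 32334792 to 32366014), was at 3.73, 4.81 and 3.63 FPKM in WT and at 6.70, 5.26 and 7.96 in the deficient group. Aen, an exonuclease gene of apoptosis (chromosome 7, 78895854 to 78911209), was at 13.2, 17.4 and 14.9 FPKM in WT and at 21.3, 18.6 and 21.1 in the deficient group. Tnfrsf10b, which encodes the mouse TRAIL death receptor (chromosome 14, 69767472 to 69784411), was at 1.77, 2.87 and 2.05 FPKM in WT and at 3.87, 2.88 and 4.50 in the deficient group. In these 3 genes, as in Phlda3, the highest WT library was replicate 2 and the lowest deficient library was replicate 2, and for Tnfrsf10b those 2 values nearly met. Over the 34 genes, WT replicate 2 was the highest WT library in 15, where it was so in 46.7% of all genes tested. The deficient means were 1.64, 1.34 and 1.68 times the WT means (log2 fold changes 0.59, 0.41 and 0.56, limma adjusted p = 0.198, 0.226 and 0.274).

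**Figure D3:**
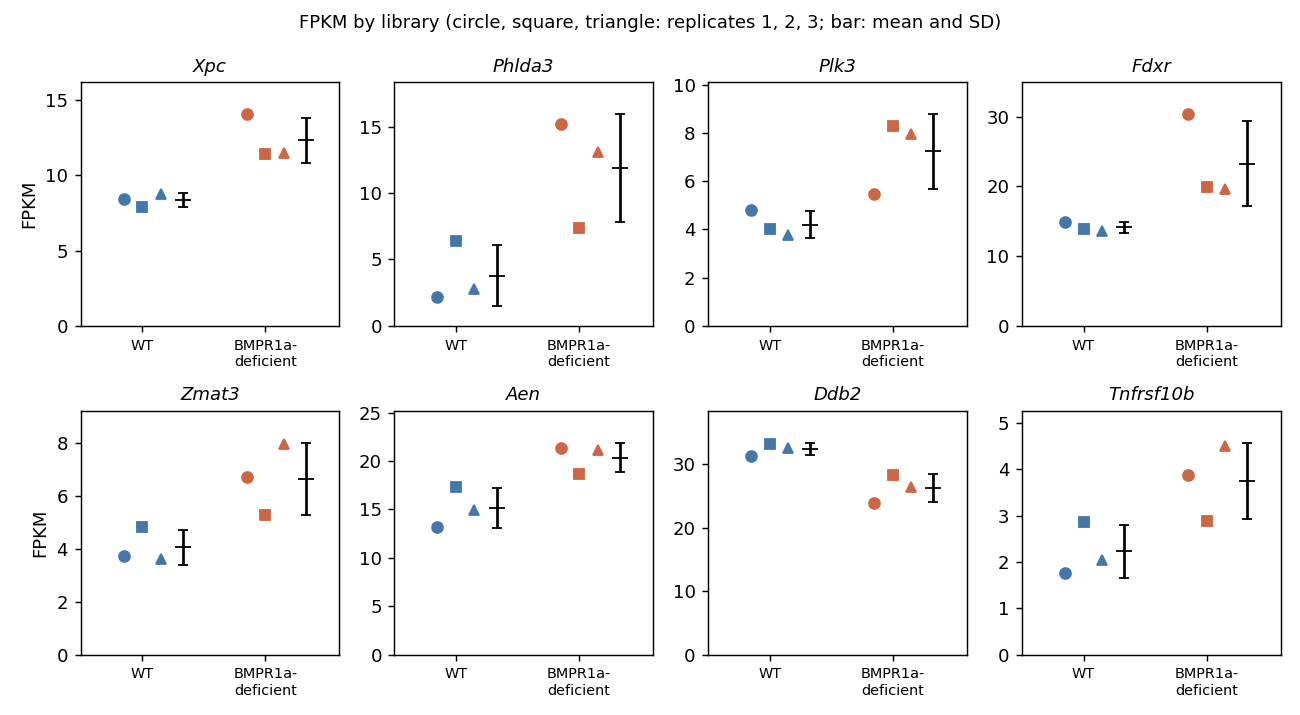
FPKM in each library of the 8 genes with an unadjusted p under 0.05, ordered by p, with blue marks for WT and orange for BMPR1a-deficient libraries, the shape for the replicate, and a bar for the mean and SD of the 3 libraries. The deficient libraries are all above WT in 7 genes and all below in Ddb2, and in Phlda3, Zmat3, Aen and Tnfrsf10b the WT library nearest to the deficient group and the deficient library nearest to WT are both replicate 2.

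The other genes of this group did not separate. Ei24, an autophagy and death gene induced by p53, was at 29.6, 35.9 and 29.9 FPKM in WT and at 32.7, 39.7 and 46.4 in the deficient group (log2 fold change 0.30, limma adjusted p = 0.421). Trp53inp1, whose product activates p53 and autophagy, was at 124 to 129 FPKM in WT and at 85.05, 126 and 138 in the deficient group, with replicate 1 alone below the WT libraries (log2 fold change -0.14, and 0.07 without it). Perp, a desmosome and death gene, was at 0.658 to 1.30 FPKM in WT and 0.765 to 1.49 in the deficient group (log2 fold change 0.04, 95% interval -0.46 to 0.54, and 0.15 without deficient replicate 1).

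The 4 genes of DNA repair and nucleotide supply went different ways. Xpc, which encodes the damage sensor of nucleotide excision repair (chromosome 6, 91489305 to 91515888), was at 8.44, 7.86 and 8.74 FPKM in WT and at 14.05, 11.4 and 11.5 in the deficient group. Ddb2, which encodes the sensor that hands ultraviolet damage to XPC (chromosome 2, 91211572 to 91236982), was at 31.3, 33.2 and 32.5 FPKM in WT and at 23.9, 28.3 and 26.4 in the deficient group. In both the groups did not overlap, with the deficient libraries above WT for Xpc and below WT for Ddb2. The deficient means were 1.48 and 0.811 times the WT means. The log2 fold changes were 0.50 (95% interval 0.23 to 0.78, limma adjusted p = 0.117) and -0.30 (95% interval -0.53 to -0.06, adjusted p = 0.254). Without deficient replicate 1 they were 0.41 and -0.23 (limma adjusted p = 0.0825 and 0.165). Of the exon bases of Ddb2, 23.8% also lie in exons of Acp2 on the other strand, and without the strand handling it is not known how reads of the overlap were counted. Polk, a polymerase gene that copies past damaged bases, was at 4.99 to 5.87 FPKM in WT and at 3.05, 5.59 and 6.40 in the deficient group (log2 fold change -0.13, and 0.13 without deficient replicate 1). Rrm2b, the p53-induced ribonucleotide reductase subunit, was at 5.99 to 6.27 FPKM in WT and 5.87 to 6.40 in the deficient group, with the narrowest interval among these 4 genes, -0.20 to 0.21 around a log2 fold change of 0.005, which was 0.038 without deficient replicate 1.

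Within the deficient group, replicate 1 and the other libraries did not lie on the same side of WT in all genes. Replicate 1 was the lowest of all 6 libraries in 11 of the 34 genes and the highest in 8, where it was so in 37.9% and 28.5% of all genes tested. Replicates 2 and 3 were lowest of 6 in 0 of the 34 genes each, against 4.94% and 6.2% of all genes tested. They were highest of 6 in 4 and 15 of the 34, against 13.9% and 16.1% of all genes tested. WT replicates 1, 2 and 3 were lowest of 6 in 11, 3 and 9 of the 34, against 17.9%, 11.6% and 18.7%, and highest in 3, 1 and 3, against 8.39%, 20.5% and 12.7%. Relative to the WT mean, 20 genes were above it both in replicate 1 and in the mean of replicates 2 and 3, 3 were below it in both, and 11 were below it in replicate 1 but above it in the others. Among these 11 were Trp53, at -0.31 in replicate 1 and 0.22 in the others, Btg2 at -0.32 and 0.21, Plk2 at -0.36 and 0.64 and Polk at -0.66 and 0.13. In the other direction Fdxr was at 1.05 and 0.46, Gadd45g at 0.82 and 0.29 and Phlda3 at 1.86 and 1.28. The median over the 34 genes was 0.06 in replicate 1 and 0.25 and 0.29 in replicates 2 and 3, and over all genes tested it was -0.04, 0.07 and 0.07. The part that the low mitochondrial RNA of replicate 1 has in these values was not tested.

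**Figure D4:**
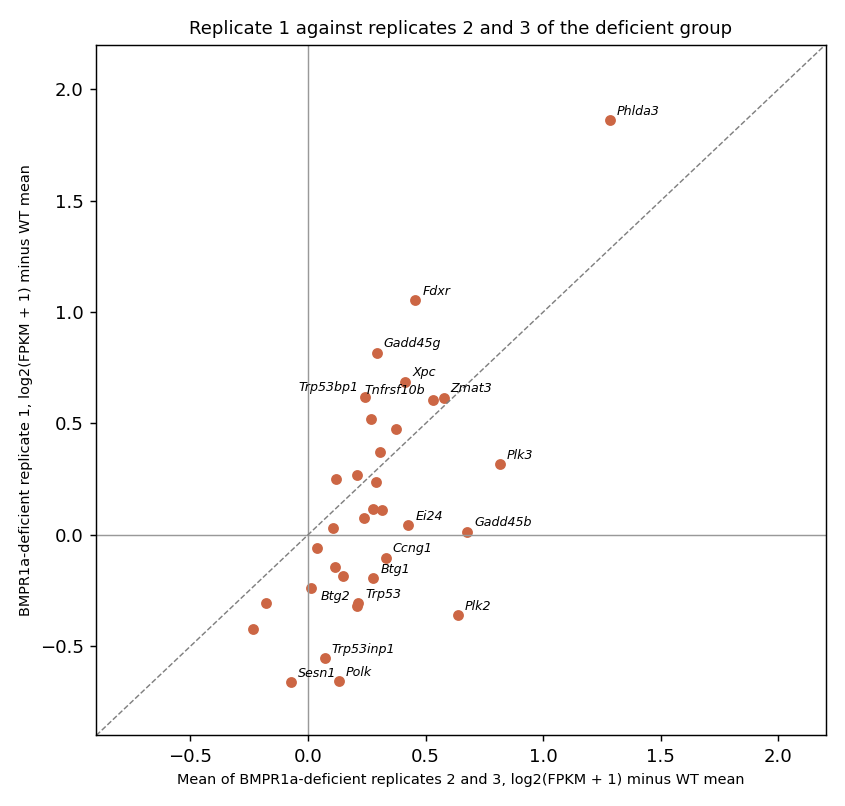
Each point is 1 of the 34 genes: the x axis gives the mean of BMPR1a-deficient replicates 2 and 3 and the y axis replicate 1, both as log2(FPKM + 1) minus the WT mean, and the dashed line marks equal values. Of the points, 20 are above 0 on both axes and 11 are above 0 only on the x axis, with Plk2, Polk and Trp53inp1 far below the line and Fdxr, Phlda3 and Gadd45g far above it.

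Other genes of the pathway were read from lists. Of 42 tested p53 regulators and targets outside the 35, 1 passed the threshold in limma, Pmaip1, which encodes the death inducer Noxa and rose by 1.501 on the log2 scale, with 3.13 ± 0.720 FPKM in WT and 10.6 ± 0.717 in the deficient group (SD, n = 3, adjusted p = 0.0182). That call held in 1 of the 6 fits that each leave out a library, the fit without deficient replicate 1, and the adjusted p over the 6 lay between 0.0398 and 0.0962 in limma. The median of the 42 was 0.13, with 27 positive fold changes, and at an unadjusted p under 0.05 there were 11 higher and 3 lower. Of all genes tested, 55.5% had a positive fold change, and 9.29% were higher and 5.87% lower at that p. Among the best known targets, Cdkn1a, the gene of p21, was at 5.38, 18.8 and 4.38 FPKM in WT and at 14.3, 11.7 and 24.9 in the deficient group. Like Phlda3 it had its highest WT value in replicate 2 and its lowest deficient value in replicate 2, but its groups overlapped. Its log2 fold change was 0.96 (95% interval -0.37 to 2.30, limma adjusted p = 0.450). Bax was at 89.5, 97.3 and 79.2 FPKM in WT and at 172, 95.7 and 113 in the deficient group, while Bbc3 and Fas had negative fold changes of -0.17 and -0.10. Without deficient replicate 1 the log2 fold change of Bax was 0.23 in place of 0.47, that of Bbc3 -0.26 and that of Fas 0.09.

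The 26 damage sensors and checkpoint partners had 24 positive fold changes, with a median of 0.28, and 0 past the threshold in limma. At an unadjusted p under 0.05, 5 were higher and 0 lower. For the lists of this paragraph, the shares of all genes tested were 55.5% positive, 9.29% higher and 5.87% lower. Rnf168, a ubiquitin ligase gene at breaks, was at 6.47 ± 0.437 and 8.82 ± 0.793 FPKM, and Rad50, of the complex that holds broken ends, at 11.8 ± 1.34 and 15.9 ± 2.197 (SD, n = 3, limma adjusted p = 0.165 and 0.257). The 29 genes of homologous recombination and the Fanconi anaemia pathway had 27 positive fold changes, with a median of 0.26, 9 higher and 0 lower at an unadjusted p under 0.05, and 0 past the threshold in limma. Xrcc2 was at 2.68 ± 0.439 and 4.08 ± 0.129 FPKM and Fanci at 6.63 ± 1.41 and 10.1 ± 1.46 (adjusted p = 0.171 and 0.234). The 30 tested cell cycle genes, which many of these repair genes accompany in cycling cells, had 27 positive fold changes and a median of 0.27, with 2 higher and 0 lower at an unadjusted p under 0.05 and 0 past the threshold in limma. In this list Ccnd2 was at 58.6 ± 4.30 and 72.2 ± 2.54 FPKM and Rrm1 at 58.4 ± 15.5 and 87.7 ± 18.6 (adjusted p = 0.256 and 0.321). Whether the cell cycle has a part in the repair gene values was not tested.

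The remaining repair lists also had 0 genes past the threshold in limma. Beside their counts stand 55.5% of all genes tested with a positive fold change and 9.29% higher at an unadjusted p under 0.05. The 26 tested genes of base excision and mismatch repair had 23 positive fold changes, a median of 0.18 and 2 genes higher at an unadjusted p under 0.05, Mgmt at 3.66 ± 0.806 and 7.61 ± 3.19 FPKM and Ung at 7.25 ± 1.31 and 10.7 ± 2.62 (SD, n = 3, limma adjusted p = 0.258 and 0.319). Their log2 fold changes were 0.84 and 0.49, and 0.56 and 0.31 without deficient replicate 1. The 16 genes of nucleotide excision repair had 12 positive fold changes and a median of 0.10, with 1 at an unadjusted p under 0.05, Gtf2h5 (29.5 ± 3.11 and 37.3 ± 3.79 FPKM), while Ddb1, the partner of DDB2, was at 79.5 ± 11.4 and 92.5 ± 1.79 FPKM. The 13 genes of non-homologous end joining had 7 positive fold changes and a median of 0.06, with 2 at an unadjusted p under 0.05, the Ku subunit genes Xrcc5 (13.6 ± 2.35 and 18.3 ± 0.466 FPKM) and Xrcc6 (23.7 ± 3.12 and 31.2 ± 4.75).

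Lists of pathways that also act on some of the 35 genes had medians below 0. Over all genes tested the median was 0.04, and 55.5% had a positive fold change. At an unadjusted p under 0.05, 9.29% of all genes tested were higher and 5.87% lower. The 16 tested hypoxia response genes, the company of Ddit4, had 2 positive fold changes and a median of -0.38, with 0 higher and 6 lower at an unadjusted p under 0.05 and 0 past the threshold in limma. Pdk1 was at 66.2 ± 20.7 and 23.3 ± 2.54 FPKM and Aldoc at 12.0 ± 5.35 and 1.95 ± 0.611 (SD, n = 3, limma adjusted p = 0.0725 and 0.0749). The 16 FOXO-dependent T cell genes, the company of Sesn1 and Sesn3, had 4 positive fold changes and a median of -0.14, with 1 higher and 4 lower at an unadjusted p under 0.05 and 0 past the threshold in limma. Il7r was at 41.6 ± 3.93 and 25.7 ± 5.29 FPKM and Pik3ip1 at 97.0 ± 8.34 and 64.8 ± 12.6 (adjusted p = 0.152 and 0.191). The 15 tested ATF4 and integrated stress response genes, the company of Sesn2, had 6 positive fold changes and a median of -0.02, with 0 higher and 1 lower, Trib3, at an unadjusted p under 0.05 and 0 past the threshold in limma. Trib3 was at 4.19 ± 0.588 and 2.33 ± 0.698 FPKM and Ppp1r15a at 16.3 ± 5.08 and 10.5 ± 0.259 (adjusted p = 0.188 and 0.345).

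With 3 libraries per group, the test limits what can be said of genes that did not pass. The 95% intervals of 28 of the 34 genes hold neither a doubling nor a halving on the log2(FPKM + 1) scale, and those of the other 6, Plk2, Plk3, Fdxr, Tnfrsf10b, Zmat3 and Phlda3, reach a doubling.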

How the data were processed

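RNA sequencing was read from 1 table of FPKM for 25759 gene identifiers in 6 libraries, 3 WT and 3 BMPR1a-deficient, matched to samples by column name. The authors deposited FPKM without counts; TopHat2, Cufflinks and Cuffdiff and the build GRCm38.p4 are named per the submitters' processing notes, while their versions and settings, the strand handling and the annotation were not given in the sources used here. Symbols and positions came from GENCODE for GRCm38 and matched 24876 identifiers. Without counts, depth was estimated: the smallest steps of FPKM in 4166 genes pointed to roughly 31000000 to 38000000 fragments per library, an approximate figure.

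The filter kept genes whose mean reached 1 FPKM. log2(FPKM + 1) was fitted with limma 3.58.1 (R 4.3.3), eBayes with a trend, two-sided, Benjamini-Hochberg adjusted at 0.05 over 13413 genes. In data simulated on these 13413 genes, with 100 genes changed at each size, 50% of log2 changes of 1 and 76% of log2 changes of 2 were recovered, and 12.5% of 144 calls were not changed. Exact permutation tests used scipy 1.17.1. The 35 members, their roles and the other lists were chosen with earlier results of these data known. All 35 members are named; of each other list, the genes past the threshold are named, or the 2 with the smallest p; Cdkn1a, Bax, Bbc3 and Fas were added by name. Alternatives varied the pseudocount, filter, scaling, eBayes settings, sample weights, biotypes, a replicate block and each library left out.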

Additional observations from a re-analysis of the deposited data

How the results depend on the processing

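Over 18 alternatives, 0 of the genes passed the threshold in 17. With sample weights (arrayWeights) 4 were higher, against 6.21% of all genes tested: Plk3 (0.83, limma adjusted p = 0.00876), Gadd45b (0.70, adjusted p = 0.0162), Xpc (0.40, adjusted p = 0.0180) and Fdxr (0.48, adjusted p = 0.0226). Over all 18 the adjusted p ranged from 0.00876 to 0.517 for Plk3, 0.0162 to 0.670 for Gadd45b, 0.0180 to 0.364 for Xpc and 0.0226 to 0.523 for Fdxr. The median log2 fold change of the members stayed between 0.16 and 0.27 and the number with a positive one between 23 and 31. Both were lowest without BMPR1a-deficient replicate 3 and highest without BMPR1a-deficient replicate 1. Genes whose deficient libraries were all above WT numbered 19 without BMPR1a-deficient replicate 1, against 10 with it, a comparison of fewer libraries. The share of all genes tested was 28.1% without that library and 15.9% with it.

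Over all genes, the higher calls numbered 833 with sample weights, 202 with protein-coding genes only and 5 with the replicate block. The lower calls numbered 407, 94 and 5 in the same fits, 27 with a mean FPKM of at least 5 and 70 with quantile normalization. Leaving out 1 library gave 10 (without WT replicate 3) to 134 (without BMPR1a-deficient replicate 1) higher and 4 to 76 lower calls, against 100 and 43. Same-numbered libraries did not deviate together (correlations 0.01, 0.064 and 0.052), so the replicate block rests on a shared number only; it called 0 of the members and ended the call of Pmaip1 (limma adjusted p = 0.108), which held in the other alternatives that kept all 6 libraries.

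Signs turned in 8 genes, whose fold changes with all libraries lay between -0.14 and 0.04. With upper-quartile scaling Trp53, Mdm2, Btg2 and Rrm2b were at -0.004, -0.015, -0.011 and -0.034, with quantile normalization Mdm2 and Rrm2b at -0.016 and -0.014, with median-ratio scaling Mdm2, Btg2 and Rrm2b at -0.005, -0.002 and -0.026, and with sample weights Trp53inp1 and Polk at 0.046 and 0.127. Leaving out 1 library gave ranges of -0.055 to 0.215 for Trp53, -0.032 to 0.115 for Mdm2, -0.155 to 0.013 for Mdm4, -0.115 to 0.227 for Btg2, -0.101 to 0.149 for Perp, -0.274 to 0.07 for Trp53inp1, -0.304 to 0.131 for Polk and -0.016 to 0.038 for Rrm2b. The cause was not tested. The filter of 5 FPKM left 30 members tested.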
